A study of Mus musculus with 6 samples.

Results

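The 10 genes described here encode the transcriptional core of the Hippo pathway and 4 of its response genes: the co-activators Yap1 and Wwtr1 (the TAZ gene), the DNA-binding factors Tead1, Tead2, Tead3 and Tead4, and the targets Ccn1 (formerly Cyr61), Ccn2 (formerly Ctgf), Amotl2 and Ptpn14. They were chosen by symbol from the 53465 genes counted, and all 10 were found and passed the filter on low counts. Expression was measured by poly(A) RNA sequencing in 6 cultures of Royan B20, an established line of mouse embryonic stem cells. All 6 had been passaged 7 times in R2i medium with LIF on 0.1% gelatin, and R2i holds PD0329501 (the labels' spelling), which blocks MEK, at 1 µM and 10 µM SB431542, a blocker of TGF-beta, activin and nodal receptors. In the R2i control group (3 libraries) nothing else was added. The BMP-inhibited group (3 libraries) was additionally given the extracellular BMP-binding protein noggin at 250 nM and 5 µM dorsomorphin, which blocks BMP type I receptors and is also known to inhibit AMPK. Both inhibitors were given together, so their effects cannot be told apart, and the labels do not say for how long. The single comparison asks how expression differs when they are added. Per the labels, libraries of a group are biological replicates, here of 1 cell line.

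YAP and TAZ do not bind DNA themselves. When the Hippo kinases LATS1 and LATS2 phosphorylate them they are held in the cytoplasm or degraded, and otherwise they enter the nucleus and activate genes through TEAD factors. In the early mouse embryo this switch separates trophectoderm, where YAP and TEAD4 are active, from the inner cell mass, the source of embryonic stem cells. RNA levels do not show where the proteins are or whether they are phosphorylated.

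Libraries held 31474666 to 35322844 gene counts. Levels are given as TMM-scaled CPM, the reads of a gene relative to the library's scaled total, and as CPM per kb of merged exons where genes are compared with each other. Such levels come from whole cultures, in which fewer expressing cells and less RNA per cell cannot be told apart. All 10 embryonic stem cell markers on a list that includes Pou5f1, Nanog and Esrrb were detected in every library, with a summed level of 5547 to 5731 CPM in controls and 4915 to 5125 CPM in BMP-inhibited cultures. Of the 10, 6 were called lower, among them Klf4 (log2 fold change -0.81) and Nanog (-0.47), and Dppa5a was called higher (0.83). Pou5f1 (0.10), Zfp42 (-0.03) and Fbxo15 (0.03) were not called. Over all 15951 genes tested, 31.7% were called lower, 32.5% higher and 64.2% in either direction. BMP-inhibited replicate 2 lay apart from replicates 1 and 3 on the second principal component (27.2 against -20.4 and -4.43). For 8 of the 10 genes it was also the BMP-inhibited library nearest to the control mean.

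With BMP inhibitors, all 4 target genes, 2 of the 4 TEAD genes and Yap1 were higher, and none of the 10 was called lower. The 7 genes called higher compare with 32.5% of all 15951 genes tested called higher, 31.7% called lower and 64.2% called in either direction. At an unadjusted p of 0.05 none of the 10 was lower either, nor with DESeq2 or limma-voom (0 genes each). For the same 7 genes the BMP-inhibited libraries all lay above the control libraries, as they did for 34.5% of all genes, with 34.1% separate in the other direction and 68.6% in either. The change reached 2-fold for Ccn1, Ccn2 and Ptpn14, and 8.01% of all genes were called higher by at least 2-fold and 7.46% lower. Ptpn14 was just under 2-fold with library totals only (log2 fold change 0.96) and without BMP-inhibited replicate 1 (0.94). The median log2 fold change of the 10 genes was 0.40, beside -0.0031 for all genes tested. Calls are from edgeR's quasi-likelihood test with Benjamini-Hochberg adjustment over all genes and a threshold of 0.05. The count of 7 was the same under each of the 14 alternative settings, the one without BMP-inhibited replicate 2 included. The count of 0 lower was not, since Tead2 was called lower under 3 of them.

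**Figure D1:**
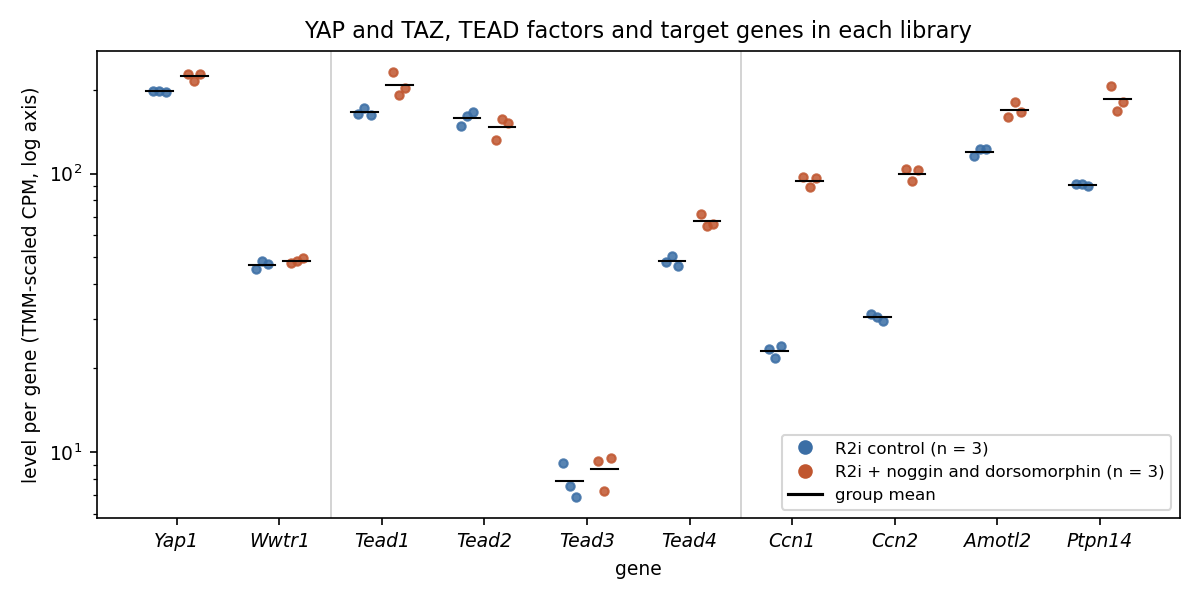
Level of each gene in each library, in TMM-scaled CPM on a log axis; points are libraries (3 per group) and black lines are group means. The groups are separate for Yap1, Tead1, Tead4, Ccn1, Ccn2, Amotl2 and Ptpn14, and overlap for Wwtr1, Tead2 and Tead3.

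Yap1 was the more abundant of the co-activators and rose slightly. Control libraries had 198, 198 and 196 CPM of Yap1 and BMP-inhibited libraries 228, 215 and 229 CPM. The 3 controls lay close together and all BMP-inhibited values were above them. The log2 fold change was 0.18 (SE 0.042, edgeR adjusted p = 0.00127), which is 1.13-fold. Yap1 (ENSMUSG00000053110) lies on chromosome 9 at 7931999 to 8004596 (GRCm38, minus strand) and shares 116 exonic bases with an antisense gene, Gm20416.

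Wwtr1 encodes TAZ, the paralog of YAP. Its levels were 45.3, 48.4 and 47.2 CPM in controls and 47.6, 48.3 and 49.7 CPM in BMP-inhibited libraries. These ranges overlapped, and the gene did not pass the test. The log2 fold change was 0.05, with a 95% interval of -0.069 to 0.16 (adjusted p = 0.466). With library totals in place of TMM factors the value was -0.012. Wwtr1 (ENSMUSG00000027803) lies on chromosome 3 at 57455649 to 57575910. Per kb of exon, the Yap1 level was 2.17 ± 0.0767 times that of Wwtr1 in controls and 2.38 ± 0.0905 times in BMP-inhibited cultures (SD, n = 3). The log2 ratio was higher in every BMP-inhibited library than in any control, a difference of 0.13, with an exact two-sided permutation p of 0.1. That is the smallest p that 3 against 3 libraries allow. Adjusted over 8 such derived measures it was 0.114.

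The 4 TEAD genes encode paralogous factors that share a DNA-binding domain, and they differed both in level and in response. Per kb of exon, Tead2 was the highest of the 10 genes in controls at 33.1 ± 2.00 CPM per kb, ahead of Tead4 at 13.5 ± 0.575, Tead1 at 12.2 ± 0.389 and Tead3 at 1.17 ± 0.171 (SD, n = 3). TEAD2 is the family member known for expression in the early embryo and in embryonic stem cells, and TEAD4 the one required for trophectoderm. Tead4 rose, from 48.1, 50.7 and 46.6 CPM in controls to 71.6, 64.7 and 65.7 CPM. Its lowest BMP-inhibited library was well above its highest control, and the log2 fold change was 0.47 (SE 0.057, edgeR adjusted p = 3.05e-06).

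Tead1 rose as well, with 163, 172 and 162 CPM in controls and 232, 191 and 203 CPM with BMP inhibitors. The BMP-inhibited libraries were more spread out than the controls, and replicate 1 was the highest. The log2 fold change was 0.33 (SE 0.059, edgeR adjusted p = 0.00015) and ranged from 0.25 to 0.39 when single libraries were left out.

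Tead2 had 148, 161 and 166 CPM in controls and 132, 156 and 152 CPM in BMP-inhibited libraries. The groups overlapped and the gene was not called, at a log2 fold change of -0.11 (95% interval -0.24 to 0.021, edgeR adjusted p = 0.129). This result turned on the processing. Tead2 was called lower with library totals only (-0.17, adjusted p = 0.028), with a replicate block (-0.11, adjusted p = 0.0467) and without BMP-inhibited replicate 2 (-0.16, adjusted p = 0.0267), and over all 14 alternatives the adjusted p ran from 0.0267 to 0.539. Tead3, the scarcest of the 10 genes, had 9.13, 7.53 and 6.91 CPM in controls and 9.30, 7.22 and 9.47 CPM with inhibitors. The groups overlapped, although replicates 1 and 3 with inhibitors lay above every control. The gene was not called, and the 95% interval of the log2 fold change, -0.14 to 0.43, was the widest among the 10 genes.

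With Tead1 and Tead4 higher and Tead2 not, the make-up of the TEAD transcripts differed between the libraries of the groups. Tead2 made up 55.1 ± 1.89% of the summed TEAD level per kb in controls and 46.4 ± 4.13% in BMP-inhibited cultures (SD, n = 3). Tead4 went from 22.5 ± 0.993% to 28.4 ± 1.62%, and Tead1 from 20.4 ± 0.613% to 23.3 ± 2.36%. Tead3 was at 1.96 ± 0.353% and 1.95 ± 0.276%. The groups did not overlap for the Tead1, Tead2 and Tead4 shares, each with an exact two-sided permutation p of 0.1, the smallest possible (0.114 adjusted over the 8 measures). The summed TEAD level was 59.9 ± 2.05 CPM per kb in controls and 66.0 ± 0.349 CPM per kb with inhibitors, again without overlap and at the same p. These shares rest on merged exon lengths, which count every annotated exon whether or not the cells use it.

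**Figure D2:**
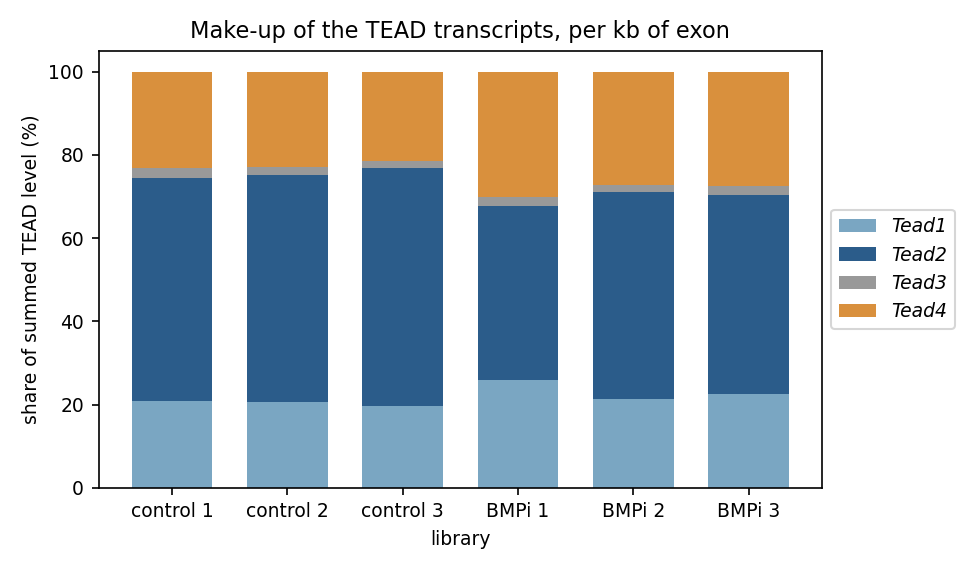
Share of the summed TEAD level (CPM per kb of merged exons, in percent) that each TEAD gene took in each library. The Tead2 segment covers 53.5% to 57.2% in controls and 41.8% to 49.7% in BMP-inhibited (BMPi) libraries, and the Tead4 segment is larger in each BMPi library.

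On GRCm38, Tead1 (ENSMUSG00000055320) lies on chromosome 7 at 112679318 to 112906807 and Tead2 (ENSMUSG00000030796) on the same chromosome at 45215753 to 45233644, where 13 exonic bases overlap the antisense gene Cd37. Tead3 (ENSMUSG00000002249) is on chromosome 17 at 28331671 to 28350817 and Tead4 (ENSMUSG00000030353) on chromosome 6 at 128224288 to 128300823.

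The target genes rose by amounts that differed widely among themselves. Ccn1 and Ccn2 encode secreted matricellular proteins and are among the most widely used readouts of YAP activity. Ccn1 (ENSMUSG00000028195, chromosome 3, 145646976 to 145649981) had 23.5, 21.8 and 23.9 CPM in controls and 96.9, 89.4 and 96.1 CPM in BMP-inhibited libraries. Every inhibited library was several times above every control. The log2 fold change was 2.03 (SE 0.059, edgeR adjusted p = 5.1e-13), or 4.08-fold, and only 448 of the 15951 genes tested had a higher one.

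Ccn2 followed closely. Its controls were at 31.4, 30.4 and 29.4 CPM and its BMP-inhibited libraries at 103, 93.7 and 103 CPM, again far apart. The log2 fold change was 1.72 (SE 0.057, edgeR adjusted p = 1.92e-12), or 3.29-fold. Ccn2 (ENSMUSG00000019997, chromosome 10, 24595442 to 24598683) shares 665 of its 2861 exonic bases with the antisense gene Gm15270, so part of its count is uncertain where the strand setting is unknown. Ccn1 overlaps no annotated exon of another gene. The log2 ratio of Ccn1 to Ccn2 per kb was 0.11 ± 0.092 in controls and 0.42 ± 0.016 with inhibitors (exact permutation p = 0.1, two-sided, adjusted 0.114).

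Amotl2 and Ptpn14 are targets of YAP that also restrain it. AMOTL2, an angiomotin-family protein, holds YAP at junctions, and PTPN14 is a phosphatase that binds YAP. Ptpn14 (ENSMUSG00000026604, chromosome 1, 189728268 to 189876695) was at 91.5, 91.4 and 90.4 CPM in controls and at 206, 167 and 181 CPM in BMP-inhibited libraries. The controls were nearly identical while the inhibited libraries varied, all of them above the controls. The log2 fold change was 1.02 (SE 0.061, edgeR adjusted p = 1.16e-09). Amotl2 (ENSMUSG00000032531, chromosome 9, 102716672 to 102733418) rose from 115, 122 and 122 CPM to 159, 180 and 166 CPM. This was the smallest change among the 4 targets, at 0.49 (SE 0.050, edgeR adjusted p = 4.76e-07), and the groups were still separate. Ptpn14 shares 177 exonic bases with the antisense gene Gm26574. For no member did the annotated transcripts of another gene match at least 50% of its longest transcript at 90% identity.

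**Figure D3:**
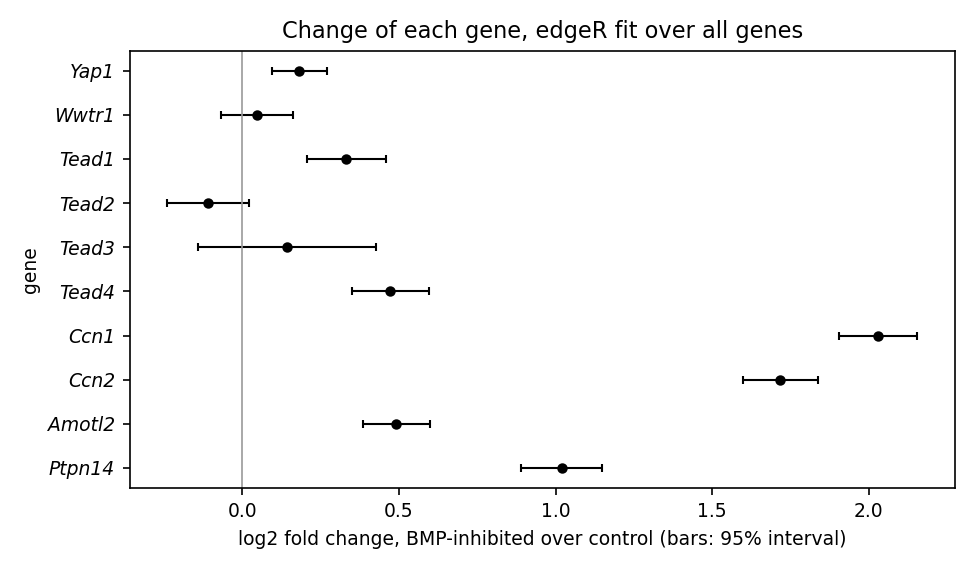
Log2 fold change (BMP-inhibited over control) of each gene with its 95% interval from the edgeR fit. Ccn1 and Ccn2 stand at 2.03 and 1.72, Ptpn14 at 1.02, and the intervals of Wwtr1, Tead2 and Tead3 include 0.

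The order of the 10 genes by level per kb changed accordingly. In controls it ran Tead2, Yap1, Amotl2, Tead4, Tead1, Ccn1, Ccn2, Wwtr1, Ptpn14 and Tead3, and among neighbours only Ccn1 (11.4 CPM per kb) and Ccn2 (10.6 CPM per kb) had overlapping libraries. In BMP-inhibited cultures Ccn1 came first at 46.6 ± 2.03 CPM per kb and Ccn2 next at 34.9 ± 1.89 (SD, n = 3). Tead2 (30.6), Amotl2 (26.8), Yap1 (24.2), Tead4 (18.7), Tead1 (15.4), Ptpn14 (13.8), Wwtr1 (10.2) and Tead3 (1.29) followed. There Tead2 overlapped Amotl2, and Tead1 overlapped Ptpn14.

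TEAD factors bind DNA at the letters GGAATG, read CATTCC on the other strand. Both strands of the 250 bases before the annotated start were searched in the RefSeq promoter table (GRCm38.p6), which held 7 of the 10 genes. Tead1, Tead4 and Ccn2 had no entry. The letters were present for 6 of the 7, all but Tead2, where 14.4% of the 27025 genes in the table hold them in at least one window of this length. By window they were in 8 of the 10 windows of these genes and in 12.6% of all 32851. These windows are not independent, since windows 1 and 2 of Wwtr1 overlap and hold the same match. Windows 2 and 3 of Tead3 lie largely in its own annotated exons (217 and 250 of 250 bases). Neither the AP-1 letters TGANTCA nor an SRF CArG box, held by 6.75% and 1.47% of all windows, was found for the 7 genes. A match of 6 letters is a description and does not show binding. The 250 bases before the starts of Ccn1 (chr3:145649986-145650235, minus strand) and Ptpn14 (chr1:189728018-189728267, plus strand) are printed because these are the strongest risers with an entry. For Amotl2 (chr9:102717727-102717756, plus strand), Yap1 (chr9:8004720-8004749, minus strand) and Wwtr1 (chr3:57576029-57576058, minus strand), 30 bases around the match are given for comparison. Capitals mark the TEAD letters, and each sequence reads 5′ to 3′ on the gene's strand.
Ccn1: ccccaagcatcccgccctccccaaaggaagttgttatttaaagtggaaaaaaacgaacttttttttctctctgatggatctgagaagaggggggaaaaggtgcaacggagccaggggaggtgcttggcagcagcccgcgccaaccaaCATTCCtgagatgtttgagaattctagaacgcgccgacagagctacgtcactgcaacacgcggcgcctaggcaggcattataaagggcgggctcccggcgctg
Ptpn14: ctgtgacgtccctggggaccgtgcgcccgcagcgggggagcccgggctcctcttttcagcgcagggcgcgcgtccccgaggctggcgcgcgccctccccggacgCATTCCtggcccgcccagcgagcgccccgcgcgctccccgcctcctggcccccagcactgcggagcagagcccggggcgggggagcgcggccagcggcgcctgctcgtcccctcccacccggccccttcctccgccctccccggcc
Amotl2: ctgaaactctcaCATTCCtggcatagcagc
Yap1: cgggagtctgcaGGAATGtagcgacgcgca
Wwtr1: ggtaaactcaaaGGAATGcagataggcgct
In the targets Ccn1, Amotl2 and Ptpn14 the letters read CATTCC and began 103, 65 and 146 bases before the RefSeq start. For Amotl2 this start and the match lie inside the gene by the coordinates given above. Of its 250 bases searched, 136 are in annotated Amotl2 exons. In the co-activators Yap1 and Wwtr1 they read GGAATG and began 141 and 136 bases before it. Wwtr1 and Tead3 also carry a match and did not pass the expression test.

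Genes of the kinase cassette that restrains YAP were higher, mostly by small amounts. For this list, and for the lists and markers below, the shares over all genes tested are the comparison. These were 32.5% called higher, 31.7% lower and 64.2% in either direction. All 7 genes of its list (the MST kinases Stk3 and Stk4, the scaffold Sav1, the LATS kinases and their MOB1 co-activators) rose, with a median log2 fold change of 0.45. Lats2, itself a known YAP target, rose from 6.18 ± 0.144 to 11.9 ± 0.584 CPM, by 0.95 (SE 0.10). Mob1b and Sav1 rose by 0.61 and 0.58, and Mob1a by 0.33. Lats2 shares 2955 of its 6971 exonic bases with Gm49361 on the same strand, and Sav1 1336 of 5265 with an antisense gene, Atl1.

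Upstream regulators moved both ways. Of 17 listed, 16 were tested, 9 rose and 5 fell (median 0.21). Nf2, which encodes the tumour suppressor merlin that recruits LATS to the membrane, fell from 272 ± 1.10 to 201 ± 5.91 CPM, a log2 fold change of -0.44. Wwc1, encoding its partner KIBRA, had a log2 fold change of -0.58. By contrast the FERM-domain gene Frmd6 rose by 0.78 and the kinase gene Taok2 by 0.71. The other fallers were Tnik (-0.92), the polarity gene Crb3 (-0.81) and Taok3 (-0.66), and Ajuba (0.02) and Dchs1 (0.37) were not called; these 5 were named after their values were seen.

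Relatives of the 10 genes and the vestigial-like TEAD cofactors included larger changes. Of 7 listed, 6 were tested, 4 rose and 1 fell (median 1.18, and 0.24 over the 5 that did not depend on BMP-inhibited libraries to pass the count filter). Amot, the founding angiomotin, rose from 1.43 ± 0.273 to 10.9 ± 1.71 CPM (log2 fold change 2.93, SE 0.17). Vgll3 rose from 2.597 ± 0.302 to 11.3 ± 1.14 CPM, by 2.11. Vgll1 counts summed to 3 over the controls and 65 over the BMP-inhibited libraries, a ratio of 23.6 (95% counting interval 7.74 to 118), and passed the filter only through the latter. Ptpn21, the paralog of Ptpn14, rose by 0.24. The other angiomotin-like gene, Amotl1, was the 1 faller, at -0.35, and Vgll4, a repressor of TEAD activity, was not called at 0.10; both are named after their values were seen.

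A published YAP signature from human tumours gave 18 further genes besides the 4 targets. Of these, 14 were tested, 8 rose and 3 fell, and 3 were not called (median 0.30). Without Nt5e, which passed the filter only through BMP-inhibited libraries, 7 of 13 rose and the median was 0.26. Lats2 is on this list too. Igfbp3, a secreted binding protein of insulin-like growth factors, rose from 4.82 ± 0.307 CPM to a mean of 20.6 CPM (18.5 to 21.8 in single libraries, log2 fold change 2.09, SE 0.10), and Myof, a membrane-repair gene, rose by 1.18. Gadd45a, a DNA-damage gene, went the other way, at -0.60. The fallers also included Axl (-0.73) and Asap1 (-0.31), and F3 (-0.24), Fjx1 (0.09) and Nuak2 (-0.02) were not called. Ankrd1, another common YAP readout, was among 4 genes too low to test. It had 0 counts in controls and 31 with inhibitors, at least 11.3-fold higher against a floor of 3 counts over the group. Axl, Asap1, F3, Fjx1, Nuak2 and Ankrd1 were named after their values were seen. Among other CCN genes, Ccn3 was at 0.450 ± 0.217 and 1.32 ± 0.379 CPM (1.56, SE 0.37) and was called higher, Ccn6 was at 0.247 ± 0.140 and 0.262 ± 0.116 CPM and was not called, and Ccn4 and Ccn5, with 15 and 1 counts in controls and 5 and 5 with inhibitors, were not tested. Ccn3 and Ccn6 reached the filter's level in fewer than 3 control libraries and so were tested only through the BMP-inhibited ones.

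Ccn1 and Ccn2 are also known targets of serum response factor (SRF) and its MRTF partners, which respond to the actin cytoskeleton. Of 14 SRF, MRTF and cytoskeletal genes, 13 were tested, 11 rose and none fell, with a median of 0.99 (0 lower at an unadjusted p of 0.05, with DESeq2 and with limma-voom). Without the 3 that passed the filter only through BMP-inhibited libraries, 8 of 10 rose and the median was 0.80. Srf itself went from 44.5 ± 1.87 to 88.5 ± 5.25 CPM, by 0.99 (SE 0.057). Cnn2, an actin-binding calponin, rose by 1.64, Vcl (vinculin) by 0.89 and Flna (filamin A) by 0.71, while Mrtfa (0.17) and Mrtfb (0.06), named after their values were seen, were not called. The part of this group in the rise of Ccn1 and Ccn2 was not tested.

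**Figure D4:**
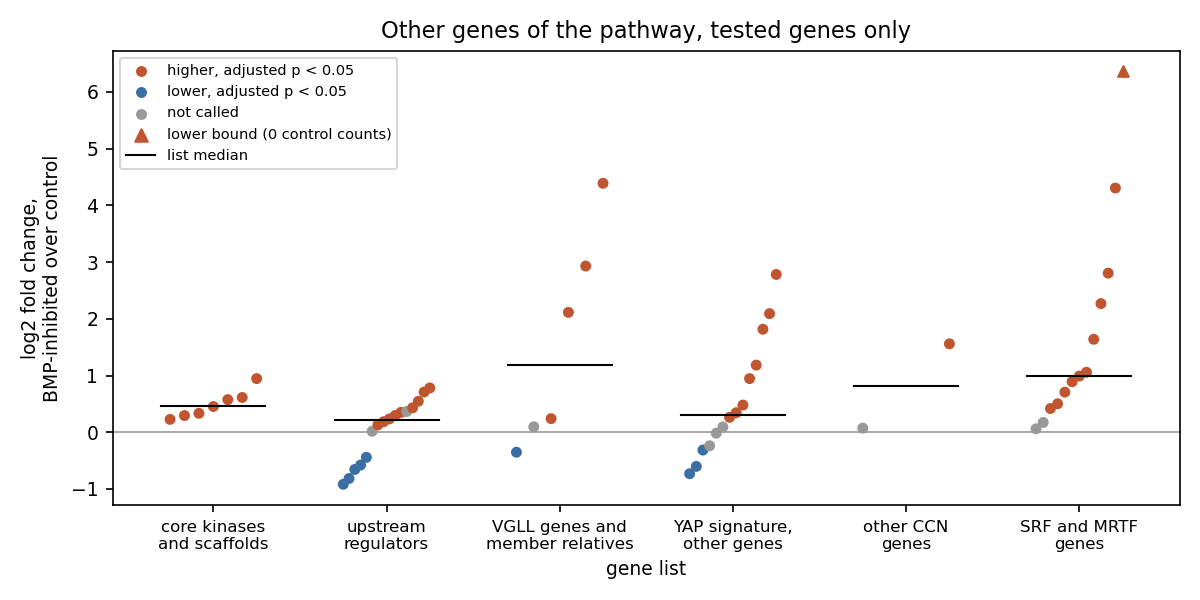
Log2 fold change (BMP-inhibited over control) of each tested gene of the 6 pathway lists; colour gives the call, black lines are list medians and the triangle is a lower bound for Acta2, which had 0 control counts. All 7 kinase-cassette genes lie above 0, while upstream regulators and the other signature genes lie on both sides.

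Some markers of other cell types also differed between the groups. Of 9 trophectoderm markers, 7 were tested, 5 rose and none fell, or 4 of 6 without Hand1, which passed the filter only through BMP-inhibited libraries. Their summed level was 173 to 177 CPM in controls and 308 to 389 CPM with inhibitors. Tfap2c made up most of the control sum, at 128 CPM in controls and 137 CPM with inhibitors. The largest rises in CPM were those of the keratin genes Krt8 (18.15 to 89.96 CPM) and Krt18 (12.03 to 78.26 CPM). Gata3 and Cdx2, known TEAD4-dependent trophectoderm genes, are among the 9 markers and were singled out after their values were seen. So were the others named here. Eomes (8.95 and 9.20 CPM, log2 fold change 0.04) and Tfap2c (0.10) were not called. Elf5, with 11 counts in controls and 14 with inhibitors, was not tested. Gata3 rose from 2.31 to 15.3 CPM (log2 fold change 2.73), and Cdx2, not tested, had 2 control counts and 43 with inhibitors, a ratio of 23.5 (95% counting interval 6.11 to 199.9). Fibroblast markers (8, of which 4 were tested and 2 rose) summed to 5.76 to 7.15 CPM in controls and 9.59 to 9.70 CPM with inhibitors, with Col3a1 and Lum at 0 in all controls. Of the 2 that rose, Postn passed the filter only through BMP-inhibited libraries. Primitive endoderm markers (8, with 2 higher and 3 lower of 7 tested) summed to 173 to 182 CPM in controls and 65.2 to 75.5 CPM with inhibitors. Lama1, a laminin gene, made up most of that sum, at 145 CPM in controls and 48.2 CPM with inhibitors. The other fallers were Gata4 (12.96 to 7.76 CPM, log2 fold change -0.74) and Sox7 (13.09 to 6.19 CPM, -1.08). The risers, Gata6 (0.376 to 1.18 CPM) and Pdgfra (0.871 to 1.904 CPM), were at much lower levels. The part of such cells in the changes of the 10 genes was not tested.

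The genes nearest in pattern were sought among 10494 protein-coding genes at or above a mean log2 CPM of 2, by Euclidean distance of centred log2 CPM over the 6 libraries. For Ccn1 these were Tmem43 (distance 0.13, log2 fold change 2.04) and Zfp365 (0.15, 1.92). Ccn2 was closest to Anxa8 (0.050, 1.72) and Pid1 (0.13, 1.66). Tead4 was closest to Atf7ip (0.056, 0.45) and Smc6 (0.067, 0.44), and Yap1 to Szrd1 (0.026, 0.18) and Coro1c (0.035, 0.17). With 2 groups of 3 libraries, genes that differ by a like amount between the groups lie close together on this measure.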

How the data were processed

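The authors deposited 1 table of raw read counts per gene and library; no normalized values were used. The submitters' processing notes list, without roles, STAR 2.6.1 and HTSeq 0.9.1 beside CASAVA 1.8.2, cutadapt 1.4.2 and DESeq2, on the build GRCm38.p6. The annotation release and strand setting are not given in the sources used here, so counts of genes with antisense overlaps are uncertain. Rows that name no gene (25.6% to 26.4% of reads) were left out. Symbols, coordinates and exon lengths came from GENCODE M21 (53360 of 53465 identifiers matched), and promoters from RefSeq.

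Genes were filtered with filterByExpr (minimum count 10, total 15), scaled with TMM and tested with edgeR 4.0.16 (R 4.3.3). Tests were two-sided, over all genes, at an adjusted p of 0.05. The test was checked on simulated data. That simulation changed far fewer genes than were called here and gave both groups the same spread, so it does not cover these conditions. The median standard error was 0.086 (log2). Intervals on counts are exact and cover counting error only. Exact permutation tests (Python 3.11.15) were used for shares and ratios, and BLAST 2.17.0 for copies. Alternatives used DESeq2 1.42.0, limma-voom (limma 3.58.1), other scalings and filters, a replicate block and leaving out libraries.

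Members and lists were chosen with earlier results of these data known. Named were the 10 members, up to 4 tested genes per list with the smallest p, every tested gene of lists with 5 or fewer genes, and the 2 genes nearest in pattern to Yap1, Tead4, Ccn1 and Ccn2.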

Additional observations from a re-analysis of the deposited data

How the results depend on the processing

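Of 543 log2 fold changes recomputed for the 39 named genes under 14 alternatives, 536 kept their direction and side of the threshold. Genes outside these 39, such as the markers and those named after their values were seen, were not recomputed one by one. Among the 543 values, the 7 exceptions concern 3 genes. Tead2 became a called faller with library totals only (-0.17), with a replicate block (-0.11) and without BMP-inhibited replicate 2 (-0.16), so the count of members called lower was 1 in these settings and 0 in the main result and the others. Wwtr1, not called, changed sign with library totals only (-0.012), and the low-count Ccn6 did so in 3 leave-one-out settings: control replicate 3 (-0.31) and BMP-inhibited replicates 1 (-0.093) and 3 (-0.14), its range being -0.31 to 0.43. The cause was not tested. Leaving out single libraries gave Tead2 values from -0.16 to -0.036 and 0 to 1 members called lower. Under the stricter count filter (CPM of at least 1 in 3 libraries) 0 other CCN genes were higher, since Ccn3 was not tested there. Over the 14 alternatives, the further YAP signature genes numbered 7 to 9 called higher and 3 to 4 called lower. Upstream regulators called higher numbered 8 to 9, the TEAD cofactors and relatives 3 to 4, and the SRF, MRTF and cytoskeletal genes 10 to 12. Genes called in all numbered 4537 to 5606 higher and 4597 to 5692 lower over the alternatives. Library totals only moved the median of all genes to -0.062, against -0.0031.

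Same-numbered libraries of the 2 groups did not deviate together (correlations of -0.044, 0.0079 and 0.029). The labels give no pairing, and such low values cannot exclude a shared passage or batch. Under the replicate block the 7 members called higher were again 7, while Tead2 was called lower. Tead3 had 814 counts in controls and 824 with inhibitors, and the largest standard error of the 10 genes (0.13).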
